A study of Arabidopsis thaliana with 16 samples.

Results

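The 7 transcripts described here, out of 33323 genes counted, were abundant in pollen-tube libraries primed with random hexamers. They were scarcer in libraries primed with oligo(dT) from the same RNA, at 1.22% to 29.1% of the hexamer level as ratios of means. They are AT2G01150 (RHA2B), AT2G31141, AT1G15405, AT1G66220, AT3G28750, AT1G61080 and AT5G19580 of Arabidopsis thaliana. They were chosen by high hexamer counts beside far lower oligo(dT) counts in all 16 libraries, without a stated numerical limit, so the difference between the primings is what selected them and is given as a description, with no test. Each RNA sample came from semi-in vivo pollen tubes, which emerge from a cut pistil onto medium, and was divided into 1 oligo(dT) and 1 random-hexamer library. Both kinds of library went through a step that removes ribosomal RNA. The samples were 4 labelled paps1-1 and 4 labelled WT, all of ecotype Col-0. The mutant allele is in PAPS1 (AT1G17980), a nuclear poly(A) polymerase, and is known as a temperature-sensitive, partial loss-of-function allele. The labels give no growth temperature and do not say whether the replicates were grown separately, and p-values here rest on a spread between samples that may be purely technical.

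Most messenger RNAs receive a poly(A) tail after cleavage of the primary transcript, and oligo(dT) primes reverse transcription from that tail or from an internal stretch rich in A. Random hexamers prime along any RNA. Transcripts of RNA polymerase I (the large ribosomal RNAs) and RNA polymerase III (transfer RNAs, 5S ribosomal RNA and 7SL RNA among others) carry no such tail, and polymerase III transcripts commonly end in a short run of U. A low oligo(dT) level relative to the hexamer level can therefore belong to quite different kinds of RNA.

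The total of gene counts per library was between 70006 (WT replicate 3, oligo(dT)) and 5294715 (paps1-1 replicate 1, random hexamers), and values are given as CPM, in which the gene counts of every library are scaled to one common total. A library without a count for a gene still allows up to 3 counts, a limit between 0.567 and 42.9 CPM. Such limits and all intervals cover counting error only. The 21 pollen-tube markers held 2.74% to 13.5% of gene counts in every library, against at most 0.0592% for 8 pistil markers, 0.0179% for 4 sperm-cell markers and 0.393% for 6 photosynthesis genes. With oligo(dT), PAPS1 had 47.3 to 308 CPM in paps1-1, against 0 to 284 CPM in WT. With hexamers it had 72.9 to 217 CPM in paps1-1, against 102 to 216 CPM in WT. These ranges overlap, and a transcript level does not check an allele.

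AT1G15405 and AT2G31141 turned out to share a sequence with each other and with the locus of a 7SL RNA, which is shown here because the choice of the genes did not use it. 7SL RNA is the RNA core of the signal recognition particle, which brings ribosomes making secreted proteins to the endoplasmic reticulum. RefSeq (TAIR10.1) annotates AT1G15405 as a non-coding RNA of 1 exon and 292 bases at chr1:5297875-5298166, minus strand. It annotates AT2G31141, at chr2:13271726-13272534 on the minus strand, as an uncharacterized protein-coding gene of 2 exons and 673 spliced bases. BLASTN aligned AT1G15405 with AT2G31141 over 295 positions at 81.4% identity. It aligned AT1G15405 with chr4:1318878-1319166, minus strand, over 290 positions at 81.4%, and AT2G31141 with the same place over 308 positions at 83.4%. That place lies inside AT4G02970 (AT7SL-1), on the strand opposite to the annotated gene, and RefSeq's note on AT7SL-1 reads signal recognition particle, of a type of RNA polymerase III dependent genes. The 3 sequences, 5′ to 3′ on the strand that aligned, have in capitals the runs of at least 10 bases that all 3 shared stretches hold unchanged. AT2G31141 is printed only for the 164 bases of its coding exon that fall in the shared stretch, chr2:13271982-13272145, and these hold 2 of the 5 runs. The other 3 runs lie in the part of its stretch that is not printed.
AT1G15405: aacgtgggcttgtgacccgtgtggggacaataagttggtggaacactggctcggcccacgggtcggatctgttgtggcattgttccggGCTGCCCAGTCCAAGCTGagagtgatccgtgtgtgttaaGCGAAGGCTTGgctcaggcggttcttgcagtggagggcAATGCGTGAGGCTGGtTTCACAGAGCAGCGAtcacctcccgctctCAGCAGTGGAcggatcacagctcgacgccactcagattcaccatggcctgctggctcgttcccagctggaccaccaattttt
AT2G31141: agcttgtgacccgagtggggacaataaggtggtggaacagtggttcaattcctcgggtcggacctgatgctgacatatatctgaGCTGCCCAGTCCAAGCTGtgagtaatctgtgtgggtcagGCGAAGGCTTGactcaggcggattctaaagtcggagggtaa
AT7SL-1 locus: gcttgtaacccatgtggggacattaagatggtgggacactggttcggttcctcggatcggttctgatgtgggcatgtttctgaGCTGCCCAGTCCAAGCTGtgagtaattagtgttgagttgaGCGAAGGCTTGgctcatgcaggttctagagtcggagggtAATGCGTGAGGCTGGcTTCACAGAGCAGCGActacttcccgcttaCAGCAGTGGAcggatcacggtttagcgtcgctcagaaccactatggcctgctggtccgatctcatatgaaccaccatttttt

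The run GCTGCCCAGTCCAAGCTG stands in each of them. AT1G15405 ends in 5 T, where 0.929% of all annotated transcripts end in at least 5. The AT7SL-1 stretch ends in 6 T, but its ends are those of the alignment with AT1G15405 and not of an annotated transcript. The longest run of A was 2 bases in AT1G15405 and 2 in the AT7SL-1 stretch, and 1.60% of all genes have a longest run that short. That share was not matched for length or GC content. AT1G15405 has 292 bases, against a median of 1516.5 spliced bases in protein-coding genes. GC content was 58.6% in AT1G15405, against a median of 41.3% in protein-coding genes. AT1G15405 matched 9 other places in the genome, AT2G31141 included, and the closest was 92.8% identical, in AT5G36275. Reads that map to several places stand in a row of their own in the deposited tables and are not in these counts, so these counts leave such reads out, and counts of similar copies are uncertain. A second annotated RNA, AT1G05163, overlaps AT1G15405 on the same strand and is not among the counted genes.

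Both RNAs were far lower with oligo(dT) than with hexamers. AT1G15405 had 98.4, 120, 5.57 and 8.79 CPM in the paps1-1 oligo(dT) libraries, against 3011, 2847, 4594 and 4005 CPM in their hexamer partners (replicates 1 to 4). In WT it had 27.5, 2.00, 0 and 56.4 CPM with oligo(dT) and 1065, 267, 4927 and 3617 CPM with hexamers. The lowest hexamer value was above the highest oligo(dT) value in either genotype. AT2G31141 had 49.7, 45.5, 2.79 and 59.8 CPM in the paps1-1 oligo(dT) libraries, against 1535, 2874, 4542 and 2475 CPM in their hexamer partners. In WT it had 63.5, 0, 14.3 and 6.76 CPM with oligo(dT) and 2496, 361, 1868 and 2545 CPM with hexamers. WT replicate 2 was the lowest hexamer library for both RNAs. As a ratio of mean CPM, oligo(dT) gave 1.31% of the hexamer level for AT1G15405 and 1.3% for AT2G31141. Per kilobase, AT1G15405 averaged 137 CPM with oligo(dT) and 10417 CPM with hexamers, and AT2G31141 averaged 45.0 CPM with oligo(dT) and 3473 CPM with hexamers.

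Counts that the selection did not use showed the same pattern at the AT7SL-1 locus. Counts on the strand opposite to AT4G02970, and so on the strand that aligned with the members, were 218, 6, 148 and 4 in paps1-1 oligo(dT) libraries and 43809, 12750, 4145 and 10757 in their hexamer partners. In WT they were 296, 5, 1 and 90 with oligo(dT) and 12803, 7942, 9341 and 21075 with hexamers. This was the highest mean opposite-strand count of any gene in the hexamer libraries, scaled to total gene counts, while the annotated strand of AT4G02970 held at most 41 counts. The oligo(dT) level was 0.915% of the hexamer level and was lower in 8 of 8 RNA samples. The locus was looked up after its match to the members had been seen, so this is a description. Other counted genes at matches of AT1G15405 did not all go the same way, by their summed raw counts over 8 libraries of each priming. AT5G36275, the closest match, had 0 counts with oligo(dT) and 54 with hexamers. The strand opposite to BXL3 (80.7% identity) had 25 counts with oligo(dT), all in 1 library, and 0 with hexamers. That opposite to AT5G09700 (78.7%) had 30 with oligo(dT), all in 1 library, and 4564 with hexamers. RR3, a response regulator of cytokinin signalling with a match of 72.2% identity on its own strand, had 273 with oligo(dT) and 78 with hexamers. Of those 273 counts 172 stood in 1 library, and the median library of RR3 had 2 counts with oligo(dT) and 10 with hexamers. AT1G49700, with a match of 69.6% identity on its own strand, had 53 with oligo(dT) and 6512 with hexamers.

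Over the 8 hexamer libraries the log2 ratio of AT1G15405 to other RNAs varied least against AT3G41768, an 18S ribosomal RNA gene (SD 0.78), then against AT2G31141 (0.84) and the opposite strand of AT7SL-1 (0.88). AT2G31141 varied least against AT1G15405.

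RHA2B encodes a RING-H2 finger protein, a ubiquitin ligase known for promoting abscisic acid responses, and RefSeq places it at chr2:100484-101566, plus strand, with 1 exon of 1041 spliced bases. In paps1-1 it had 48.0, 19.4, 98.9 and 1.76 CPM with oligo(dT) and 2245, 462, 3026 and 1352 CPM with hexamers. In WT it had 0.679, 1.00, 771 and 68.8 CPM with oligo(dT) and 1280, 1099, 68668 and 4504 CPM with hexamers. WT replicate 3 stood far above all others in both primings, and its hexamer library gave RHA2B 6.87% of all gene counts. That library had the fewest gene counts of the hexamer libraries (628358), with 76.9% of reads unmapped and 6043 genes counted. With oligo(dT) its 771 CPM were 54 counts. The oligo(dT) level of RHA2B was 1.22% of the hexamer level as a ratio of means.

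Across hexamer libraries RHA2B varied together with AT2G01010, an 18S ribosomal RNA gene on the same chromosome. RHA2B divided by AT2G01010 was 5.05, 4.59, 6.42 and 3.99 in paps1-1 and 8.36, 8.02, 7.94 and 6.95 in WT. Of 92 other RNAs compared with RHA2B over the 8 hexamer libraries, AT2G01010 gave the smallest SD of the log2 ratio, 0.41, and the next, the 18S gene AT3G41768, gave 1.54. RHA2B itself varied with an SD of 2.16 on the log2 scale. The ratio was lower in every paps1-1 library than in any WT library, which was seen after the pair had been picked and was not tested. Genotypes did not overlap for 2 of the 92 ratios of RHA2B, the one to AT2G01010 included, and for 32% of all 4278 pairs of these RNAs. The sequences share no word longer than 9 bases on the same strand or 11 as reverse complements, and the genes lie 94970 bases apart. In oligo(dT) libraries AT2G01010 had at most 12 counts, too few for a ratio. Whether the removal of ribosomal RNA, which the protocol applied to every library, bears on this was not tested.

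**Figure D1:**
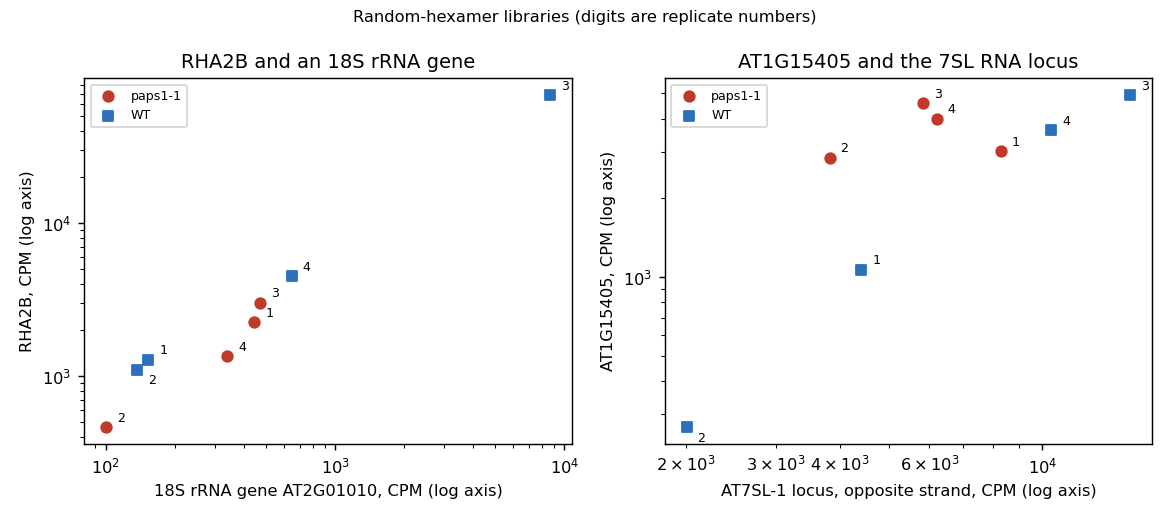
Random-hexamer libraries, both axes CPM on log scales, digits are replicate numbers. Left: RHA2B against the 18S gene AT2G01010, where the 8 points lie along one line and WT replicate 3 is highest in both (68668 and 8646 CPM). Right: AT1G15405 against opposite-strand counts of the AT7SL-1 locus, a looser relation (SD of the log2 ratio 0.88, after 0.78 for AT3G41768 and 0.84 for AT2G31141).

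The other 4 genes encode, or are annotated to encode, proteins. AT1G66220 (chr1:24670536-24673661, plus strand, 8 exons) is a subtilase, a serine protease of a family that is mostly secreted. AT1G61080 (chr1:22492878-22497267, minus strand, 8 exons) is annotated to the hydroxyproline-rich glycoprotein family, a label that does not by itself place it in the cell wall. AT5G19580 (chr5:6607371-6609799, minus strand, 2 exons) is related to glyoxal oxidases, which oxidise small aldehydes with release of hydrogen peroxide. AT3G28750 (chr3:10791499-10792846, minus strand, 1 exon) is uncharacterized. In the hexamer libraries these 4 varied least against other protein-coding transcripts. The SD of the log2 ratio was 0.10 between AT5G19580 and GH9A4 (a glycosyl hydrolase), 0.11 between AT1G61080 and CPK17 (a calcium-dependent protein kinase), 0.12 between AT3G28750 and AT3G05610 (of the invertase/pectin methylesterase inhibitor superfamily) and 0.21 between AT1G66220 and MIOX4 (a myo-inositol oxygenase). Against AT2G01010 the 4 genes had SDs of 1.94 to 2.24, which ranked 89th or 90th of the 92 RNAs compared with each gene. These SDs are descriptions over 8 libraries that share depth and sample composition.

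AT1G66220 and AT1G61080 were far lower with oligo(dT), AT1G61080 unevenly so across libraries. With oligo(dT), AT1G66220 had 38.3, 28.5, 0 and 49.2 CPM in paps1-1, against 20.7, 2.00, 0 and 1.13 CPM in WT. With hexamers it had 616 to 2113 CPM in paps1-1, against 721 to 1436 CPM in WT. AT1G61080 had 94.6, 9.59, 69.6 and 1.76 CPM with oligo(dT) in paps1-1, against 64.2, 237, 0 and 56.4 CPM in WT. Its hexamer values were 548 to 1713 CPM in paps1-1, against 1274 to 2381 CPM in WT. Oligo(dT) and hexamer values did not overlap for either gene. The oligo(dT) level was 1.51% of the hexamer level for AT1G66220 and 4.66% for AT1G61080.

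AT3G28750 and AT5G19580 were among the most abundant transcripts in both primings and only moderately lower with oligo(dT). AT3G28750 had 4857, 2990, 2819 and 4784 CPM in paps1-1, against 4330, 1843, 971 and 1508 CPM in WT oligo(dT) libraries. Its hexamer values were 18034, 8737, 7587 and 17970 CPM in paps1-1, against 18470, 14501, 17199 and 16453 CPM in WT. The 2 lowest hexamer values were those of paps1-1 replicates 2 and 3. AT5G19580 had 7462, 2469, 2288 and 5113 CPM in paps1-1, against 7381, 6125, 1243 and 3974 CPM in WT oligo(dT) libraries. Its hexamer values were 21823, 8667, 7522 and 17817 CPM in paps1-1, against 20173, 18922, 11527 and 17638 CPM in WT. The oligo(dT) level was 20.3% of the hexamer level for AT3G28750 and 29.1% for AT5G19580. They lie 18th and 24th from the lowest ratio among the 92 genes with a mean hexamer level of at least 1157 CPM, the level of AT1G66220, the lowest of the 7.

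**Figure D2:**
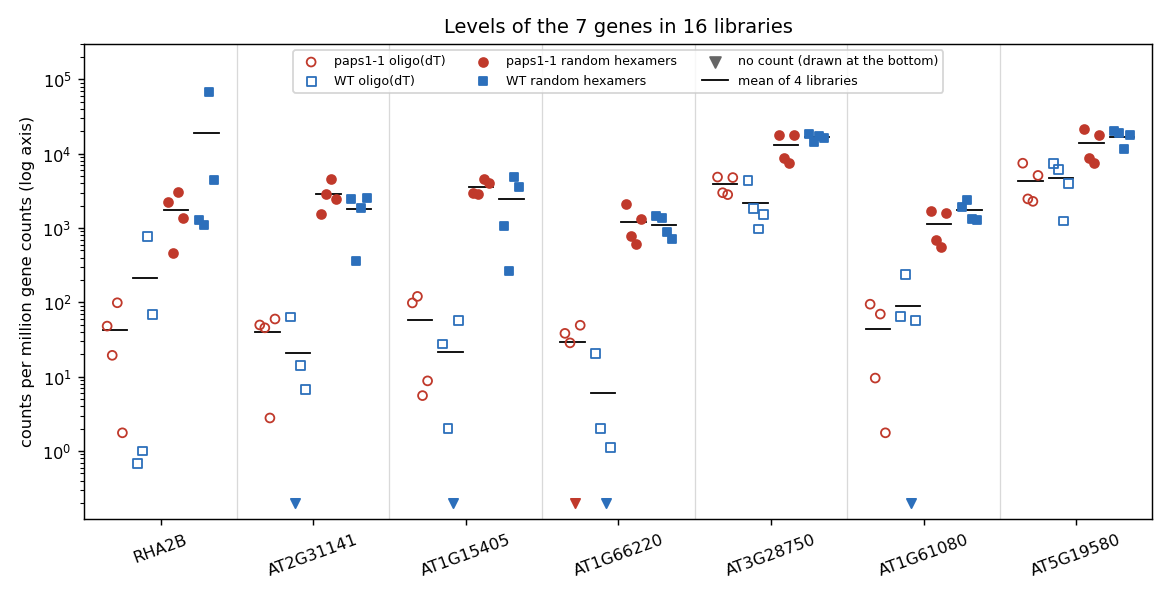
CPM (log axis) of the 7 genes in each library, with oligo(dT) as open and random hexamers as filled symbols, paps1-1 in red and WT in blue, bars for the mean of 4 libraries and triangles for libraries without a count. Hexamer values are above oligo(dT) values of the same genotype for each gene, and RHA2B in WT replicate 3 is the highest point at 68668 CPM.

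The 85 other genes of that abundance had a median ratio of 67.8%, and 17 of them (20%) had a ratio no higher than that of AT5G19580. At or below the 4.66% of AT1G61080, the fifth lowest of the 7, there were 3 others: the 18S genes AT2G01010 (0.117%) and AT3G41768 (1.3%), and MYB120 (2.99%), a transcription factor of pollen tubes that acts in their reception by the ovule. The name poorly captured by oligo(dT) thus covers an extreme group of 5 and a milder pair. In an edgeR fit over all 16 libraries the log2 fold changes, oligo(dT) over hexamers, were -7.81 to -2.71 for the 7 genes with a median of -7.56, beside a median of -3.24 over all 14190 genes tested, of which 10% passed an adjusted p of 0.05 and 9.85% were lower. AT3G28750 (-3.23 ± 0.38, SE) lay at that median and AT5G19580 (-2.71 ± 0.36, SE) above it. Fitted within WT alone, these 2 genes had -3.44 and -2.36, both below a median of -1.94 over all genes. Within paps1-1 they had -2.37 and -2.39, beside a median of -2.41. The median over all genes in the fit of 16 libraries also moved with the setting, to -1.43 without the block. The most alike profiles over 16 libraries among the 85 genes, by correlation with the mean profile of the 7, were those of PERK6, a receptor-like kinase (r = 0.948), AT2G01010 (r = 0.944) and AT4G39110, a malectin-type receptor kinase (r = 0.939), followed by AT3G19020 (LRX8, r = 0.906) and AT3G41768 (r = 0.883). These correlations share the split between primings with the choice of the genes.

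Genotypes were compared by the oligo(dT) level as a percentage of the hexamer level in each RNA sample. The median over the 7 genes was 3.27%, 4.20%, 3.27% and 2.42% in paps1-1 replicates 1 to 4 and 2.58%, 0.750%, 0.765% and 1.56% in WT. The corresponding medians of the 85 other genes were 70.7%, 72.3%, 59.8% and 62.6% in paps1-1 and 67.5%, 76.8%, 34.6% and 76.4% in WT. The genotypes overlap in both. WT replicate 3, whose oligo(dT) library is the shallowest, is low in both sets, and 3 of the 7 genes had no count there, which allows ratios of up to 0.870% for AT1G15405, 4.87% for AT1G66220 and 3.21% for AT1G61080.

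For AT3G28750 the percentages were 26.9, 34.2, 37.2 and 26.6 in paps1-1 and 23.4, 12.7, 5.65 and 9.17 in WT. Every paps1-1 sample was above every WT sample, which held in this direction for 2.09% of 4067 genes with a ratio in all samples and for 2 of the 85 abundant others (2.35%). The 8 pistil markers likewise did not overlap between genotypes with oligo(dT), at 0.0130% to 0.0592% of gene counts with 1 to 6 markers counted in paps1-1, against 0% to 0.00804% with 0 or 1 counted in WT. With hexamers they held 0.00984% to 0.0441% in paps1-1, against 0.00283% to 0.00995% in WT, which overlap. CRC and HEC1 were at 0 in every oligo(dT) library, and the part of pistil RNA in the ratio of AT3G28750 was not tested. For AT5G19580 they were 34.2, 28.5, 30.4 and 28.7 in paps1-1 and 36.6, 32.4, 10.8 and 22.5 in WT. The genotypes overlapped for AT5G19580, and did so for RHA2B (0.130% to 4.20% in paps1-1, 0.0530% to 1.53% in WT), AT2G31141 (0.0613% to 3.24%, against 0% to 2.54%), AT1G15405 (0.121% to 4.23%, against 0% to 2.58%), AT1G66220 (0% to 3.69%, against 0% to 1.44%) and AT1G61080 (0.111% to 12.7%, against 0% to 9.96%).

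**Figure D3:**
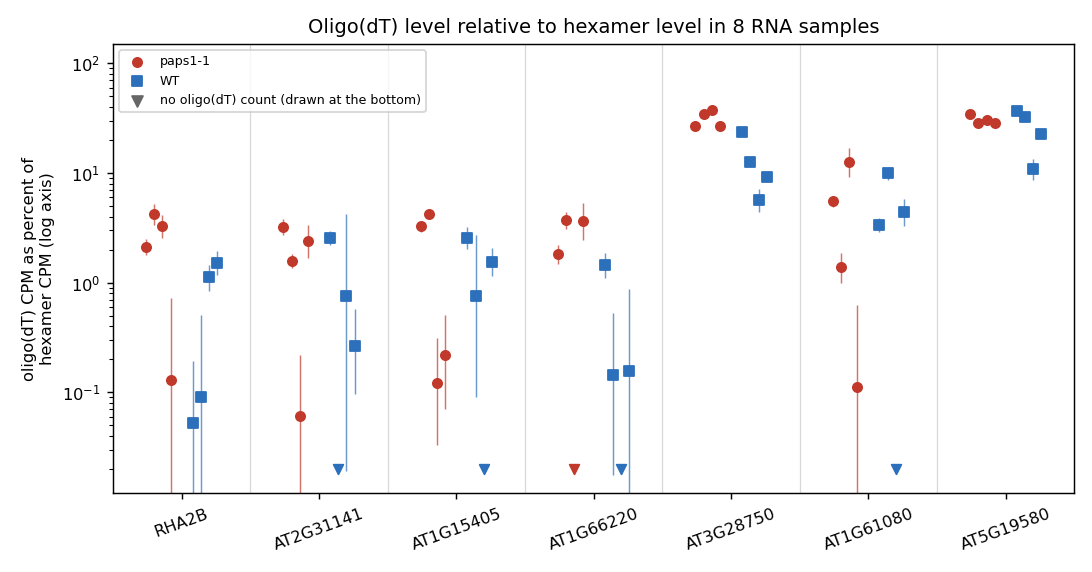
Oligo(dT) CPM as a percentage of hexamer CPM (log axis) in each of 8 RNA samples, paps1-1 in red and WT in blue. Vertical lines are 95% counting intervals and triangles are samples without an oligo(dT) count; for AT3G28750 the paps1-1 samples (26.6% to 37.2%) lie above the WT samples (5.65% to 23.4%).

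The genotype difference of the ratio was tested as the interaction of genotype and priming (edgeR quasi-likelihood, RNA sample as a block, Benjamini-Hochberg adjustment over 14190 genes). None of the 7 genes passed an adjusted p of 0.05, beside 0% of all genes, of which 231 had an unadjusted p below 0.05 and DESeq2's Wald test called 28 (0.197%). The log2 difference, paps1-1 minus WT, was 1.80 ± 0.72 (SE) for AT3G28750 with an unadjusted p of 0.0121 and an adjusted p of 1, beside a median of 0.97 over all genes. It was 2.84 ± 0.98 (SE) for RHA2B, with an unadjusted p of 0.00389 and an adjusted p of 1. With DESeq2's size factors both passed, at an adjusted p of 0.0381 each in edgeR. Of 14190 genes 3 were then called higher and 1 lower, and the median over all genes was 0.66. In DESeq2's Wald test neither passed (adjusted p = 0.847 for RHA2B and 0.878 for AT3G28750), and the median over all genes was -0.51. Leaving out WT replicate 3 also brought AT3G28750 past the threshold (adjusted p = 0.00909 in edgeR), where 1 of 16259 genes was called higher and 1 lower. Over all settings tried the adjusted p of AT3G28750 lay between 0.00909 and 1.

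No genotype difference in level passed the test in either priming. In hexamer libraries 0 of the 7 genes were called between paps1-1 and WT by edgeR, beside 0.0715% of 12595 genes (9 genes), 1 of the 7 had an unadjusted p below 0.05, and DESeq2 called 37 genes (0.294%). That 1 gene was RHA2B, at 1771 ± 1109 CPM in paps1-1, against 18888 ± 33223 CPM in WT (SD, n = 4 each). Its log2 fold change was -3.20 ± 1.19 (SE), with an adjusted p of 1.00 in edgeR. It was -0.33 without WT replicate 3, so the difference rested on that library. Without a filter on low counts edgeR called RHA2B, at -3.18 and an adjusted p of 0.000505. Of 22922 genes 27 were then called higher and 20 lower. The other 6 genes lay between -0.61 and 0.61, with a median over all genes of 0.38.

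In oligo(dT) libraries 0 of the 7 genes were called, beside 0.0196% of 5101 genes (1 gene), none had an unadjusted p below 0.05, and DESeq2 called 54 genes (1.06%). The log2 fold changes lay between -1.66 (RHA2B) and 2.17 (AT1G66220), with standard errors between 0.85 and 2.55 and a median over all genes of 0.43. For the 5 RNAs that are scarce with oligo(dT) the standard errors were 1.99 to 2.55, and none of them passed the test.

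**Figure D4:**
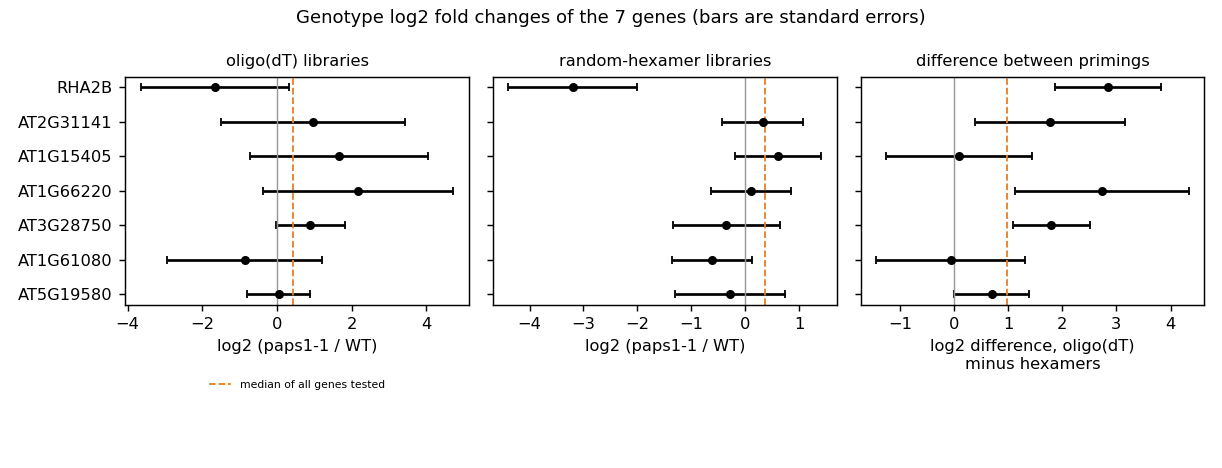
Log2 fold changes of the 7 genes, paps1-1 over WT, in oligo(dT) and in random-hexamer libraries, and the difference between the 2 (right), with standard errors as bars. The dashed line is the median of all genes tested (0.43, 0.38 and 0.97), and no gene passed an adjusted p of 0.05.

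Relatives of the 7 genes were read in the same priming fit, by annotation lists that leave the 7 out. Of 178 listed genes tested, 23 were lower with oligo(dT), 1 was higher and the rest did not pass, beside the 10% of all genes. Called genes numbered 48 with DESeq2's Wald test, 38 without the block, and 12 without WT replicate 2, 13 without WT replicate 4, 14 without WT replicate 1 and 15 without paps1-1 replicate 2 or 3. Calls over all genes changed as well. With DESeq2's Wald test 23.8% of 14190 genes passed, and without the block 1848 were lower and 93 higher. Without WT replicate 2, 174 of 15290 genes were lower and 17 higher. Of 13 ribosomal, transfer, small nuclear and small nucleolar RNAs tested, 6 were lower, with a list median of -6.31 on the log2 scale, beside -3.24 for all genes. They included AT3G41768, at 248 ± 394 CPM with oligo(dT) and 19070 ± 22411 CPM with hexamers (SD, n = 8 each; log2 fold change -7.21 ± 0.46, SE, adjusted p = 2.66e-52 in edgeR), and another ribosomal RNA gene, AT3G41979, which had no oligo(dT) count in any library. Of 71 long non-coding and other RNAs, 1 was lower, AT1G64563, at 8.45 CPM with oligo(dT) and 75.3 CPM with hexamers. The list median was -1.76.

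Among 21 pollen-tube genes 9 were lower and 1 was higher, with a median of -1.91. MYB120 had 41.5 ± 52.7 CPM with oligo(dT) and 1390 ± 795 CPM with hexamers (SD, n = 8 each), and a log2 fold change of -7.31. The leucine-rich repeat extensins AT3G19020 (LRX8) and AT2G15880 (LRX10), cell wall proteins of the pollen tube, had -3.56 and -3.53. These values were close to the median of all genes, and both genes were called lower (adjusted p = 3.28e-18 and 1.45e-10 in edgeR). The close subtilase neighbour of AT1G66220, AT1G66210, had 740 ± 345 CPM with oligo(dT) and 3067 ± 1041 CPM with hexamers (log2 fold change -2.96, adjusted p = 4.34e-05 in edgeR), and 4 of 21 subtilases were lower, with a median of -3.21. RHA2A, the nearest relative of RHA2B, had 1.79 ± 5.05 CPM with oligo(dT) and 16.6 ± 12.7 CPM with hexamers (SD, n = 8 each). It passed at an adjusted p of 0.0387 in edgeR. Its oligo(dT) mean lay below its SD and below the 42.9 CPM that 3 counts make in the shallowest oligo(dT) library. The call therefore rests on a level near the floor. RHA2A was 1 of 2 RING-H2 relatives tested, while RHA3B did not pass (adjusted p = 0.464). None of 3 glyoxal oxidase relatives and 2 of 47 hydroxyproline-rich glycoproteins passed, all lower, with list medians of -4.47 and -4.12.

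Internal A stretches, which oligo(dT) can also bind, were read from the spliced RefSeq transcripts. RHA2B had the lowest ratio of mean CPM (1.22%). By the median over 8 RNA samples AT1G66220 was lowest (0.799%), and RHA2B had 1.33%. The most A-rich 20 bases are printed with A in capitals for the pair best captured of the 7, AT5G19580 and AT3G28750. The same is printed for RHA2B and for AT1G15405, which has the fewest A.
AT5G19580: AAAAAAAAAgAAAAcAAAAA
AT3G28750: AcccAcAAgAAAttAcAAAA
RHA2B: AAgAAAgAAgAAAgAAgAAA
AT1G15405: gAcAAtAAgttggtggAAcA

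AT5G19580, the best captured of the 7, held 18 A in 20 bases and a longest run of 9, and 1.92% of protein-coding genes have at least as many A in 20 bases. That stretch lies ahead of the coding part, 2028 bases before the end of the transcript. The stretch of RHA2B lies after the coding part, 348 bases before the end. Whether oligo(dT) primed at either stretch was not tested. AT3G28750 held 12 A, RHA2B 15 and AT1G15405 8, and the other 3 held 13 or 14, so among the 7 the number of A did not follow the order of the ratios. In the order given in the opening, the longest runs of A were 6, 5, 2, 6, 5, 7 and 9, and the median protein-coding gene has 6. None of the 7 transcripts had AATAAA (searched on the sense strand) in the last 50 bases of its annotated model, where 9.65% of protein-coding genes have it, and the annotated model of AT1G66220 ends with its coding part. Among the 83 abundant protein-coding genes other than the 7, the median ratio of oligo(dT) to hexamers was 53.9% for 20 genes with a longest run of at most 5, 65.2% for 21 genes with 6, 73.1% for 20 genes with 7 or 8 and 81.3% for 22 genes with 9 or more. Median spliced lengths of these bins were 1926, 1768, 1921 and 2182 bases. The position of the runs was not considered, and whether they bear on the ratio was not tested.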

How the data were processed

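The authors deposited read counts per gene for 16 libraries, each in 3 versions that ignore strand, take the sense strand or take the opposite one. STAR had aligned the reads to TAIR10, as named in the submitters' processing notes, and its version and gene annotation were not given in the sources used here. Sense-strand counts were used, and the rows that name no gene (55.1% to 99.6% of reads) were left out of library sizes. Tests used the quasi-likelihood fit of edgeR 4.0.16 in R 4.3.3, after TMM scaling and filterByExpr (minimum count 10, minimum total 15), with Benjamini-Hochberg adjustment over all genes tested and a threshold of 0.05. Genotypes were compared within each priming, and the priming and interaction fits kept the RNA sample as a block. DESeq2 1.42.0 was an alternative, as were other scalings, no filter, counts without strand, and leaving out each replicate. Scripts were tested on simulated data. Within a group no 2 libraries agreed within sampling noise (chi-square per degree of freedom at least 19.5).

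Transcript models and sequences are from RefSeq TAIR10.1, matched by locus for 32827 identifiers, and carry that build's coordinates, since the count files hold none. BLASTN 2.17.0 searched the spliced members against the 5 nuclear chromosomes (e-value 1e-10, at least 100 aligned positions). A ratio is oligo(dT) CPM over hexamer CPM, and opposite-strand counts were scaled to the gene counts of their library. The 7 genes and all lists were chosen with earlier results of these data known. Genes named beyond the 7 are PAPS1, up to 3 per list of smallest p, the 5 of most alike profile and the 3 of lowest ratio among abundant genes; the sequence matches and the genes of smallest ratio spread were named after their values had been seen.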

Additional observations from a re-analysis of the deposited data

Results flagged for a closer look

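In 4 of 42 groups of 4 values checked for the 7 genes, 1 sample stood far from the other 3; chance alone flags about 1 group in 20. RHA2B in WT oligo(dT) libraries had its highest value in replicate 3, 771 CPM, with the others between 0.679 and 68.8 CPM. The hexamer library of the same RNA sample had the highest RHA2B value in WT, 68668 CPM, with the others between 1099 and 4504 CPM. AT1G66220 in WT oligo(dT) libraries was highest in replicate 1, at 20.7 CPM, with the others between 0 and 2.00 CPM. The ratio of AT1G66220 in that RNA sample, 1.44% of the hexamer level, was likewise above the other WT samples, which lay between 0% and 0.156%.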

How the results depend on the processing

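None of the 7 genes passed a genotype or interaction test in the main fits, and over 294 alternatives for single genes 4 passed. In hexamer libraries 1 gene passed with no filter. In the interaction 2 passed with DESeq2's size factors, and leaving out 1 RNA sample gave 0 to 1. Listed genes called between primings numbered 24 in the main fit, 48 with DESeq2's Wald test, 38 with no replicate block, and 12 to 28 on leaving out 1 RNA sample. Calls over all genes changed as well, from 10% in the main fit to 23.8% with DESeq2's Wald test. Directions below the threshold were not stable. With the replicate number as a block, AT1G66220 had a log2 fold change of -0.13 in hexamer libraries and RHA2B 0.61 in oligo(dT) libraries, both turned round and neither called. AT5G19580 turned to -0.015 in oligo(dT) libraries with library totals. The interaction of AT1G15405 turned to -0.22 with DESeq2's size factors, -0.18 with library totals, -0.21 with the Wald test and -0.073 with no filter. Leaving out 1 replicate turned AT1G66220 (-0.55 to 0.60), AT3G28750 (-0.71 to 0.041) and AT5G19580 (-0.80 to 0.12) in hexamer libraries, RHA2B (-2.0 to 0.90), AT1G61080 (-2.19 to 0.25) and AT5G19580 (-0.71 to 0.56) in oligo(dT) libraries, and the interaction of AT1G15405 (-1.37 to 1.43) and AT1G61080 (-1.04 to 0.90). The cause was not tested. Same-numbered replicates of the genotypes deviated together in part: with hexamers r was 0.296 and 0.246 for replicates 1 and 2, which matched their own number best in both primings, and -0.0354 and -0.0741 for replicates 3 and 4, which did not (with oligo(dT), -0.0742 to 0.205). Since not every pair was above 0.1, the numbers were not taken to pair the samples, and the block changed no call of the 7 genes. In the shallowest oligo(dT) library 3 counts are 42.9 CPM.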
